A study of Macaca mulatta with 2 samples.

Results

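The *GNLY*+ *KLRF1*+ *CX3CR1*-negative DP T cells are 350 of the 7601 blood cells, sorted as CD4+CD8+ DP T cells, that passed the cell filter, or 4.6% (exact binomial 95% interval 4.14 to 5.10). They were selected on their transcripts. A cell had to hold at least 1 UMI (a count of 1 captured RNA molecule) of *GNLY*, at least 1 of *KLRF1* and at least 1 of *CD3D*, *CD3E* and *CD3G* together. It also had to hold no UMI of *CX3CR1*, *EOMES*, *TRAV10*, *TRAV12-2*, *TRAV19* or *TRBV7-3*. These cells are called the gated cells here, and the levels of those 11 genes in them follow from the selection and are a description only.

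The blood came from 1 healthy, untreated adult rhesus monkey, 6 years old. CD4+ cells were taken from fresh blood mononuclear cells with magnetic beads, and CD8+ cells were then taken from these, so that every cell described here had passed both bead steps. The cells gave a 5' RNA library and a library of antibody tags (feature barcodes, FB) for CD4 and CD8. With 1 animal there are no replicates and no test was made. Intervals throughout are exact 95% intervals that cover counting error only, and say nothing of how another animal would differ.

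The gated cells were set against 1293 cells with a *CX3CR1* UMI (CX3CR1 cells) and against 4610 cells without a *GNLY* UMI (*GNLY*-negative cells). Both groups were cut by UMIs as well. They share 533 cells, which is 41.2% of the CX3CR1 cells. Median depth was 3332 UMIs in the gated cells (lowest 645, highest 11476), 3412 in the CX3CR1 cells and 3863 in the *GNLY*-negative cells. The gated cells hold 1309012 gene UMIs in all. Levels are given as CPM, the summed UMIs of a gene in a group per 1000000 gene UMIs of that group.

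Granulysin, encoded by *GNLY*, is a pore-forming protein of cytotoxic granules that acts on the membranes of microbes and target cells. *KLRF1* encodes NKp80, an activating lectin-like receptor best known from natural killer (NK) cells and also found on subsets of effector T cells. *CX3CR1* encodes the fractalkine receptor, which marks differentiated cytotoxic effector T cells that patrol the vessel wall. T cells with granules but without this receptor are often found among less differentiated effector memory cells, where granzyme K tends to be more abundant and granzyme B less so.

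Positions are those of RefSeq on the Mmul_10 genome. *GNLY* is at chr13:22778040-22782836 on the minus strand. *KLRF1* is at chr11:9859108-9874215 on the minus strand, on the same chromosome as *KLRB1* (chr11:10090828-10103486, plus strand) and *CD4*. *CX3CR1* is at chr2:94725701-94741488 on the minus strand, and *EOMES* is on the same chromosome. The 3 CD3 genes lie together on chromosome 14, between 111360597 and 111409366.

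The selection left few of the cells with granulysin. A *GNLY* UMI was seen in 2991 cells and a *KLRF1* UMI in 993 of those, of which 988 had a CD3 UMI. The step on *CX3CR1* removed 346 of these cells, that on *EOMES* 58 more, and those on *TRAV10*, *TRAV12-2*, *TRAV19* and *TRBV7-3* a further 39, 82, 81 and 32. Within the gated cells *GNLY* ran from 1 to 69 UMIs with a median of 3, and 28 cells held 10 or more. *KLRF1* ran from 1 to 5 with a median of 1, and 249 of the 350 cells held exactly 1 UMI. The group level was 1095 CPM (1040 to 1154) for *GNLY* and 375 CPM (343 to 410) for *KLRF1*.

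Because most cells sit at the edge of the selection, the cells just inside and just outside it are given side by side. The 81 gated cells with exactly 1 UMI of both genes had *GZMB* at 2657 CPM (2475 to 2849), *TGFBR3* at 205 CPM (157 to 264) and *GZMK* at 309.9 CPM (249.8 to 380.0). The 66 gated cells with at least 2 UMIs of both had *GZMB* at 2327 CPM (2142 to 2522), *TGFBR3* at 360.1 CPM (289.9 to 442) and *GZMK* at 463 CPM (383 to 555). Outside the edge, 957 cells with *GNLY* but no *KLRF1* UMI, alike in every other step, had *GZMB* at 909.6 CPM (879.7 to 940.2), *TGFBR3* at 163 CPM (150.02 to 176) and *GZMK* at 479 CPM (458 to 502). A further 186 cells with *KLRF1* but no *GNLY* UMI had *GZMB* at 2872 CPM (2744 to 3005), *TGFBR3* at 289 CPM (250 to 333) and *GZMK* at 425 CPM (376 to 478). Cells kept out for lack of *KLRF1* thus held less *GZMB* than the gated cells, while the cells kept out for lack of *GNLY* held more than the gated cells as a whole (2183 to 2347 CPM), at an interval that overlaps only that of the gated cells with 1 UMI of both. *GZMK* in both outer groups and *TGFBR3* in the cells without *GNLY* had intervals that overlap those of the gated cells as a whole (436 to 512 and 257 to 315 CPM).

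Detection of *CX3CR1* moved with depth. Among the 542 cells that passed every other step, 192 held a *CX3CR1* UMI (35.4%, 31.4 to 39.6), and these are called the counterpart cells. The share was 23.5% (16.7 to 31.6) in the 136 cells with the fewest UMIs and 41.9% (33.5 to 50.7) in the 136 with the most. After every cell was thinned to 2000 UMIs, 36.0% of the CX3CR1 cells had lost their last *CX3CR1* UMI. Some gated cells can therefore carry *CX3CR1* RNA that was not sampled, and the word negative means without a UMI.

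The T cell identity of the gated cells was checked on genes that the gate did not use, since at least 1 CD3 UMI was a condition of it. *TRAC*, the constant part of the alpha chain of the T cell receptor, had a UMI in 254 gated cells (72.6%), against 5.81% of 86 cells with B cell genes and no CD3 UMI (the B-gene cells), which serve as the background for shares. The genes listed here for NK cells were near 0, though genes of the *KLRC* family, also made by NK cells, were not matched by symbol. Of 7 such genes measured, *NCAM1*, *SH2D1B* and *FCGR3* had no UMI in any gated cell, *NCR1* had 1 UMI, *FCER1G* and *SPON2* had 5 each and *IL18RAP*, the most abundant, had 6. Their summed level was 12.99 CPM, against 12.94 CPM in the CX3CR1 cells and 15.8 CPM in the *GNLY*-negative cells.

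Most genes of other cell types were low as well. Of 8 B cell genes, *CD22* and *PAX5* were at 0 and the sum was 55 UMIs (42.0 CPM), led by *CD79B* with 20 UMIs in only 2 cells. The sum was 63.5 CPM in the CX3CR1 cells and 232 CPM in the *GNLY*-negative cells. Of 10 monocyte genes, *LYZ*, *FCN1*, *VCAN*, *S100A8*, *S100A9*, *CSF1R* and *MS4A7* were at 0, and the sum of 12 UMIs was mostly *CD68*. The 7 dendritic cell genes summed to 5 UMIs and the 6 platelet genes to 4. *HBB*, the beta chain of haemoglobin, had no UMI in the gated cells and 2 UMIs in the CX3CR1 cells. It stood at 139.6 CPM in the *GNLY*-negative cells, at least 60.9-fold higher than the floor of 3 counts over the gated cells. *HBA*, a haemoglobin alpha gene, was not absent, with 62 UMIs in 54 gated cells (47.4 CPM), against 124 CPM in the CX3CR1 cells and 204 CPM in the *GNLY*-negative cells. The part of other cell types in the levels below was not tested.

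The label of these cells also names *TGFBR3* and *USH1C*, and their levels were compared with that label. *TGFBR3* (chr1:132294561-132501703) encodes betaglycan, a coreceptor that presents transforming growth factor beta. It stood at 285 CPM (257 to 315) in the gated cells, 247 CPM (234 to 261) in the CX3CR1 cells and 81.6 CPM (77.6 to 85.7) in the *GNLY*-negative cells. The log2 ratio was 0.21 (0.04 to 0.37) to the CX3CR1 cells and 1.80 (1.64 to 1.97) to the *GNLY*-negative cells. The first ratio was 0.17 (-0.12 to 0.45) after thinning and 0.14 (-0.04 to 0.32) with *ADGRG1* also barred, where the intervals span 0. *TGFBR3* had a UMI in 58.0% of gated cells (40.8% after thinning), 56.1% of CX3CR1 cells (36.6%) and 2.33% of B-gene cells (2.53%). *TGFBR3* was thus far higher in both cytotoxic groups than in the *GNLY*-negative cells, and differed much less between them.

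*USH1C* (chr14:48093320-48143730) encodes harmonin, a scaffold protein of sensory hair cells and gut epithelium. Its level was 29.8 CPM (21.2 to 40.7) in the gated cells, 63.7 CPM (57.0 to 71.0) in the CX3CR1 cells and 24.5 CPM (22.4 to 26.9) in the *GNLY*-negative cells. Only 36 gated cells held a UMI of it, and none held more than 2. The log2 ratio to the CX3CR1 cells was -1.10 (-1.61 to -0.62), so that *USH1C* was lower. With at least 2 *KLRF1* UMIs required it was -0.54 (-1.34 to 0.16) and after thinning -0.67 (-1.46 to 0.05), where the intervals span 0. The ratio to the *GNLY*-negative cells was 0.28 (-0.23 to 0.75). In none of these comparisons was *USH1C* shown to be higher in the gated cells, against the label. Of 8 genes for partners of harmonin, 7 had no UMI in the gated cells and *MYO7B* had 1.

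Across all genes the gated cells and the CX3CR1 cells were close. Of 6751 genes with at least 10 CPM as the mean of both groups, 10 (0.148%) were higher in the gated cells and 14 (0.207%) lower, by a log2 ratio of CPM + 10 of at least 1. In all, 96.4% of these genes differed by less than 0.5, and the median was -0.07. Among the 10 higher genes were *GNLY* and *KLRF1* of the gate, 4 segments of the T cell receptor alpha chain, 3 genes without a symbol and *GZMK*. Among the 14 lower genes were 4 genes of the gate, 3 receptor segments, 5 genes without a symbol, *HBA* and *SACM1L*. *GZMK* was thus the only gene with a symbol, other than the gate and receptor segments, that was higher by this measure.

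Against the *GNLY*-negative cells, 76 of 6702 genes (1.13%) were higher in the gated cells and 90 (1.34%) lower by the same measure, and the median was 0.10. Among genes with a symbol, apart from the gate genes *GNLY* and *KLRF1*, the 10 with the largest ratios were *CTSW*, *CCL5*, *GZMK*, *CST7*, *NKG7*, *TGFBR3*, *PRF1*, *KLRD1*, *GZMM* and *KLRB1*. Most of these are products of cytotoxic lymphocytes. On the lower side the 10 such genes included *HBB*, *CCR7*, *CD7*, *CTSH*, *RCAN3*, *LEF1*, *HBA*, *CD79A* and *PECAM1*. This lower set joins genes of naive T cells (*CCR7*, *LEF1*), a B cell receptor chain (*CD79A*) and haemoglobin genes, and 142 of the *GNLY*-negative cells had no CD3 UMI.

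**Figure D1:**
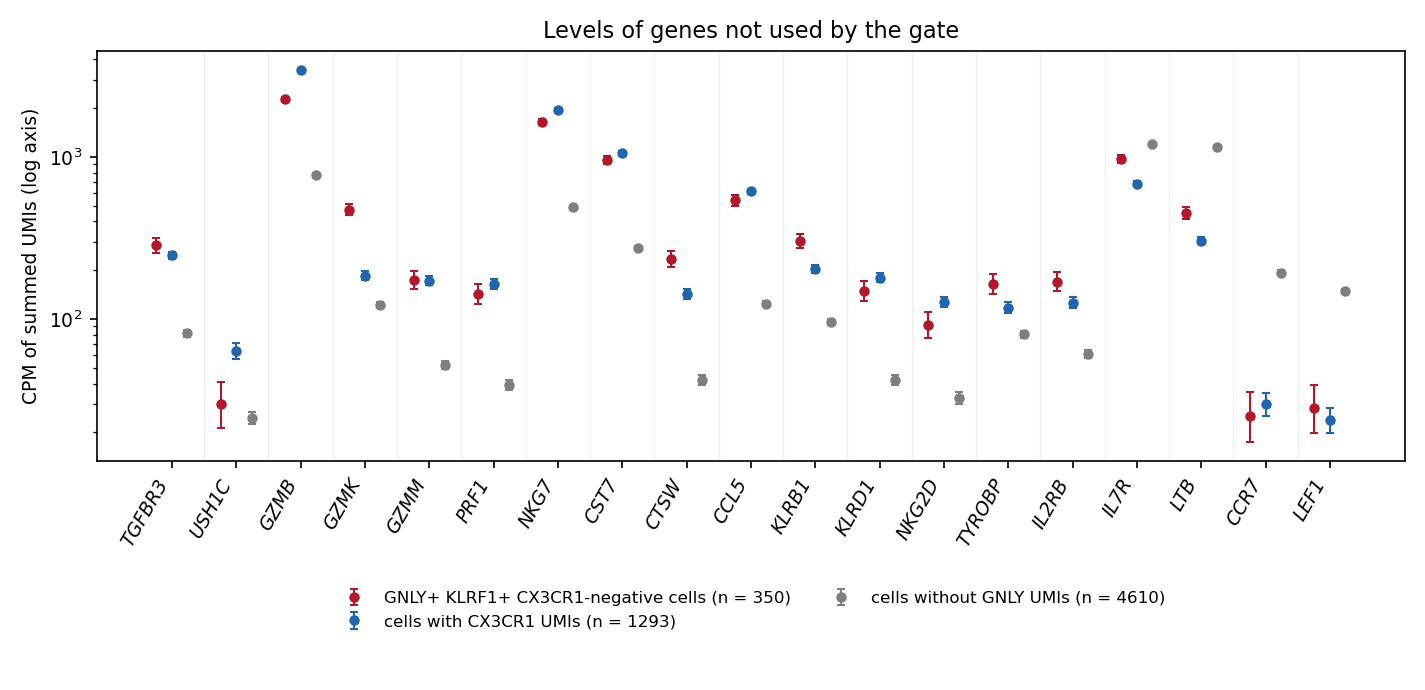
CPM of summed UMIs (log axis) of 19 genes that the gate did not use, in the gated cells (red), the CX3CR1 cells (blue) and the *GNLY*-negative cells (grey), with exact Poisson 95% intervals. *GZMK*, *CTSW* and *KLRB1* are highest in the gated cells, *GZMB* stands at 2264 CPM between the other groups, and *CCR7* and *LEF1* are low in both cytotoxic groups.

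The cytotoxic granule genes divided into those that the gated cells share with the CX3CR1 cells and those that differ. Granzymes are proteases that granules deliver into a target cell, with perforin as the pore. *GZMB* (chr7:86703929-86707259) stood at 2264 CPM (2183 to 2347) in the gated cells, 3418 CPM (3368 to 3469) in the CX3CR1 cells and 772 CPM (760 to 785) in the *GNLY*-negative cells. It was lower than in the CX3CR1 cells by a log2 ratio of -0.59 (-0.65 to -0.54). *GZMK* (chr6:53329124-53338866) went the other way, at 473 CPM (436 to 512), 185 CPM (174 to 197) and 122 CPM (117 to 127). Its log2 ratio to the CX3CR1 cells was 1.35 (1.20 to 1.4999).

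The granzymes differed in the share of cells too. A *GZMB* UMI was seen in 85.4% of gated cells (81.3 to 89.0), 96.9% of CX3CR1 cells, 26.96% of *GNLY*-negative cells and 8.14% of B-gene cells. A *GZMK* UMI was seen in 40.9% (35.7 to 46.2), 21.1%, 9.85% and 1.16%. Thinned to 2000 UMIs, with 14 gated cells and 69 CX3CR1 cells too shallow to keep, the shares with *GZMK* were 34.8% (29.7 to 40.2) of gated cells and 14.6% (12.7 to 16.7) of CX3CR1 cells. The order of the groups was the same with and without thinning.

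Of the other granule genes, some differed from the CX3CR1 cells beyond counting error and some did not. *GZMM* stood at 174 CPM in the gated cells and 172 CPM in the CX3CR1 cells, with a log2 ratio of 0.02 (-0.20 to 0.23). *PRF1*, which encodes perforin, stood at 144 and 165 CPM, a log2 ratio of -0.20 (-0.43 to 0.03). *NKG7*, a granule membrane protein, was lower over all cells by a log2 ratio of -0.25 (-0.32 to -0.19), at 1640.2 and 1955 CPM. Within clusters 1 and 2 described below its intervals span 0, at -0.02 (-0.12 to 0.07) and 0.01 (-0.13 to 0.16). In cluster 3 it was lower by -0.36 (-0.54 to -0.19). Here and below, ratios within clusters can be smaller by construction, as the clusters were made from these same genes. *CST7*, an inhibitor of granule proteases, was lower over all cells by -0.15 (-0.24 to -0.06), at 954.2 and 1061 CPM. Within each of the 3 large clusters its interval spans 0, with log2 ratios of 0.06, 0.09 and -0.09. *CTSW*, a cysteine protease of cytotoxic cells, was higher in the gated cells at 234 CPM (208 to 261) against 143 CPM (133 to 154). Within cluster 2 its log2 ratio to the CX3CR1 cells was 0.58 (0.22 to 0.93). Its intervals span 0 in cluster 1 (0.22, -0.19 to 0.62) and cluster 3 (0.43, -0.09 to 0.92). Of 18 granule genes tested against the CX3CR1 cells, *GZMK* was past the fold and none was past it on the lower side (all genes, 0.148% higher and 0.207% lower), and the list's median log2 ratio was -0.14. Against the *GNLY*-negative cells 7 of 17 were past it, all higher, with a median of 0.87, where 1.13% of all genes were higher.

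Among the killer receptors, *KLRB1* was higher than in both comparison groups. It encodes CD161, a lectin-like receptor of NK cells and of innate-like and memory T cells. Its level was 303 CPM (273 to 334) in the gated cells, 204 CPM (192 to 216) in the CX3CR1 cells and 95.9 CPM (91.6 to 100.4) in the *GNLY*-negative cells, and it had a UMI in 159 gated cells. The level was not particular to the gated cells. In the 186 cells with *KLRF1* but no *GNLY* UMI it was 286 CPM (247 to 330), where the intervals overlap. In the 957 cells with *GNLY* but no *KLRF1* UMI it was 227 CPM (213 to 243). *KLRD1* (CD94, the partner chain of the NKG2 receptors) and *NKG2D* (an activating receptor for stress ligands) were lower than in the CX3CR1 cells, with log2 ratios of -0.26 (-0.49 to -0.04) and -0.46 (-0.76 to -0.18). Within each of the 3 large clusters described below both intervals span 0, as does that of *NKG2D* against the counterpart cells (-0.35, -0.75 to 0.06). *NCR3* (NKp30) and *SLAMF7* had intervals that span 0. Of 10 receptors tested 6 were higher than in the *GNLY*-negative cells past the fold (all genes, 1.13%), with a median of 1.18. None was past it against the CX3CR1 cells, where 0.148% of all genes were higher and 0.207% lower, so that none of 10 is close to the share of all genes. Genes of the *KLRC* family were not matched by symbol and were not analysed here.

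Adaptors carry the signals of such receptors. *TYROBP* encodes DAP12, which pairs with activating receptors through an ITAM. It stood at 165 CPM (144 to 189) in the gated cells, 117 CPM (108 to 127) in the CX3CR1 cells and 80.6 CPM (76.7 to 84.8) in the *GNLY*-negative cells. The log2 ratio to the CX3CR1 cells was 0.49 (0.26 to 0.72), and 1.10 (0.68 to 1.53) to the 192 cells that differ from the gate by *CX3CR1* alone. It was 0.34 (-0.07 to 0.73) with at least 2 *KLRF1* UMIs required and 0.33 (-0.09 to 0.735) after thinning, where the intervals span 0. A *TYROBP* UMI was seen in 22.6% of gated cells (18.3 to 27.3) and 21.3% of CX3CR1 cells (19.1 to 23.7), or 15.8% and 14.2% after thinning. The levels thus differed without a clear difference in shares. One gated cell held 13 UMIs, and the 10 gated cells of cluster 5 described below held 28 of the 216. As 33.7% of the B-gene cells held a *TYROBP* UMI, they are no background for this gene. *HCST* (DAP10) was more abundant, at 1438 CPM against 1627 CPM in the CX3CR1 cells. Among 11 adaptors and kinases tested against the CX3CR1 cells none was past the fold, close to the shares of all genes (0.148% higher, 0.207% lower).

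Genes of naive and resting memory cells lay between the other groups or near the CX3CR1 cells. *IL7R*, the receptor for interleukin 7, stood at 974 CPM (921 to 1029) in the gated cells, 684 CPM (662 to 707) in the CX3CR1 cells and 1197 CPM (1182 to 1213) in the *GNLY*-negative cells. *LTB*, a cytokine of the tumour necrosis factor family, stood at 451, 304 and 1158 CPM in the same order, and the *LTB* ratio to the CX3CR1 cells (0.57, 0.43 to 0.70) was -0.0038 with at least 2 *KLRF1* UMIs required and 1.35 after thinning. *TCF7*, a transcription factor of naive and self-renewing T cells, was higher than in the CX3CR1 cells by a log2 ratio of 0.59 (0.09 to 1.07) and lower than in the *GNLY*-negative cells by -1.38 (-1.81 to -0.97). *CCR7*, a chemokine receptor that guides cells into lymph nodes, was at 25.2 CPM, against 193 CPM in the *GNLY*-negative cells. Of 13 genes of this list tested against the *GNLY*-negative cells 9 were past the fold, all lower (all genes, 1.34%), with a median of -1.46. Against the CX3CR1 cells the median of 12 was 0.25 and none was past it, close to the shares of all genes (0.148% higher, 0.207% lower).

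The *CCR7* level in the gated cells came from few cells. It had 33 UMIs in 19 of them, and its log2 ratio to the *GNLY*-negative cells was -2.94 (-3.48 to -2.44), or -4.76 after removal of the 5% of cells that scored highest as possible doublets, -4.65 with at least 2 *KLRF1* UMIs required and -5.35 after thinning. Of the gated cells, 33 (9.43%) were among those 5%, against 7.89% of the CX3CR1 cells.

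**Figure D2:**
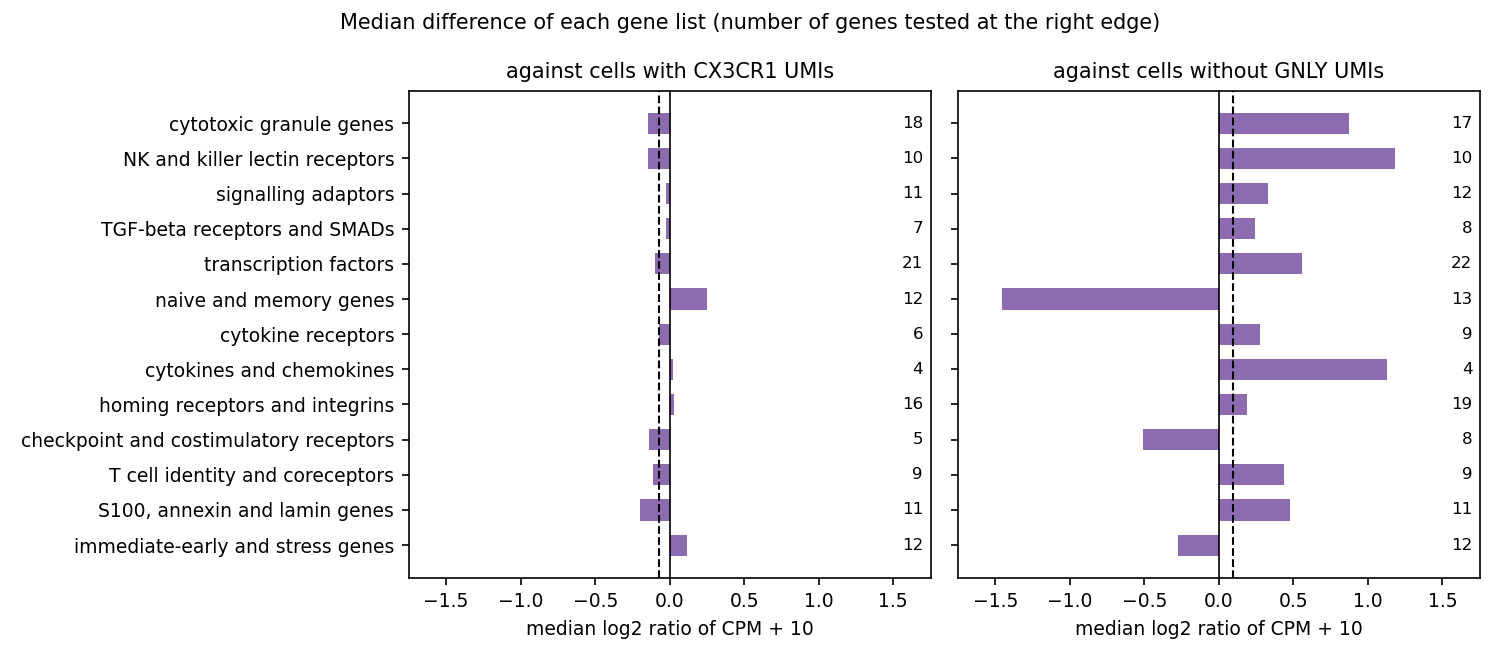
Median log2 ratio of CPM + 10 of the gated cells for 13 gene lists, against the CX3CR1 cells (left) and against the *GNLY*-negative cells (right). The dashed line is the median of all genes tested, and numbers at the right edge are the genes tested. List medians lie between -0.20 and 0.25 on the left, while on the right naive and memory genes reach -1.46 and killer receptors 1.18.

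Transcription factors of effector cells came next. *TBX21* (T-bet) stood at 51.2 CPM in the gated cells, 64.7 CPM in the CX3CR1 cells and 17.5 CPM in the *GNLY*-negative cells. *ZEB2*, which acts with T-bet in terminal effector cells, stood at 168, 219 and 55.9 CPM, with a log2 ratio to the CX3CR1 cells of -0.38 (-0.60 to -0.17). Against the counterpart cells it was -0.20 (-0.51 to 0.11), and within clusters 1, 2 and 3 described below its intervals also span 0. *RUNX3*, *ID2* and *HOPX* stood at 161, 592 and 347 CPM and differed from the CX3CR1 cells by a log2 ratio under 0.25 in size. *BATF* was lower, at 14.5 against 34.4 CPM, a log2 ratio of -1.24 (-2.01 to -0.56) from 19 UMIs. Of 22 factors tested 6 were higher than in the *GNLY*-negative cells past the fold, against 1.13% of all genes. Of 21 tested against the CX3CR1 cells none was past it, which is close to the 0.148% higher and 0.207% lower of all genes, and the median was -0.10.

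Among cytokines and their receptors, *CCL5*, a chemokine stored in the granules of effector cells, stood at 541 CPM (502 to 582) in the gated cells, 614 CPM (593 to 636) in the CX3CR1 cells and 124 CPM (120 to 130) in the *GNLY*-negative cells. *IFNG* stood at 19.9 CPM, with 26 UMIs in 23 cells, and *IL2*, *IL10*, *IL17A* and *IL21* had none. *IL2RB*, the chain through which interleukins 2 and 15 signal, was higher than in the CX3CR1 cells at 170.4 CPM against 126 CPM, a log2 ratio of 0.43 (0.20 to 0.65). Against the counterpart cells it was 0.31 (-0.03 to 0.65), and within clusters 1 and 3 described below its intervals also span 0. *IL2RG* and *IL10RA* were lower, by -0.23 (-0.35 to -0.11) and -0.25 (-0.40 to -0.11).

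Homing receptors went both ways against the CX3CR1 cells, with 8 of 16 above 0 and a median of 0.03. *CXCR3*, a receptor for chemokines of inflamed tissue, stood at 67.2 CPM against 44.6 CPM, a log2 ratio of 0.59 (0.22 to 0.95), but of 0.27 (-0.26 to 0.83) to the counterpart cells. *ICAM2* stood at 73.3 against 44.0 CPM. The integrin chains *ITGB2* and *ITGB7* were lower, with log2 ratios of -0.56 (-0.70 to -0.43) and -0.67 (-1.003 to -0.35). *ADGRG1* (GPR56), an adhesion receptor of cytotoxic cells, stood at 45.1 CPM in the gated cells, 65.5 CPM in the CX3CR1 cells and 14.04 CPM in the *GNLY*-negative cells. *S1PR5*, an egress receptor of effector cells, had a log2 ratio of -0.26 (-0.72 to 0.17) to the CX3CR1 cells. None of the 16 was past the fold there, close to the shares of all genes (0.148% higher, 0.207% lower).

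Other genes of the transforming growth factor beta pathway had their own levels. *TGFBR2*, the type II receptor, stood at 114 CPM in the gated cells, 89.8 CPM in the CX3CR1 cells and 64.5 CPM in the *GNLY*-negative cells, a log2 ratio to the CX3CR1 cells of 0.34 (0.07 to 0.61). Against the counterpart cells it was 0.28 (-0.13 to 0.71), where the interval spans 0. *TGFBR1* stood at 17.6, 19.3 and 15.5 CPM. The ligand *TGFB1* stood at 251, 266 and 176 CPM, and *TGFB2* and *ENG* had no UMI. *SMAD4*, which carries the signal to the nucleus, had only 10 UMIs in the gated cells, 7.64 CPM against 2.90 CPM in the CX3CR1 cells, a log2 ratio of 1.40 (0.08 to 2.65). Its interval against the counterpart cells (-0.22 to 8.04) spans 0. Of 8 genes of this list tested against the *GNLY*-negative cells, none was past the fold, close to the shares of all genes (1.13% higher, 1.34% lower), and the median was 0.24.

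Checkpoint, memory and early response genes also differed little from the CX3CR1 cells. *PDCD1* (PD-1) stood at 231 CPM against 261 CPM, and at 94.2 CPM in the *GNLY*-negative cells. *S100A4*, a calcium-binding protein of memory and effector cells, stood at 4508 CPM against 5171 CPM, and its list of 11 genes had a median log2 ratio of -0.20, where the median of all genes was -0.07. *FOS* and *JUN* were higher than in the CX3CR1 cells by log2 ratios of 0.35 (0.28 to 0.42) and 0.41 (0.29 to 0.53), and lower than in the *GNLY*-negative cells by -0.44 and -0.68. Some genes of that list came from few cells. One gated cell held 166 of the 332 *DUSP2* UMIs, and one held 37 of the 43 *NR4A1* UMIs. Genes of cycling cells summed to 80.2 CPM in the gated cells, 122 CPM in the CX3CR1 cells and 73.1 CPM in the *GNLY*-negative cells.

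The gated cells were not of 1 kind. All 7601 cells were clustered without the 11 genes of the gate, which gave 13 clusters, numbered here by the gated cells they hold. Cluster 1, led by *GZMB*, *CMA1*, *ZEB2* and *ADGRG1* besides gate genes, held 137 gated cells (39.1%, 34.0 to 44.5) and 56.5% (53.7 to 59.2) of the CX3CR1 cells. Cluster 2, led by *KLRB1*, *CTSW*, *SPINK2*, *CXCR3*, *IL2RB* and *GZMK*, held 126 gated cells (36.0%, 30.97 to 41.3) and 12.99% (11.2 to 14.9) of the CX3CR1 cells. Cluster 3, led by receptor segments with *CCL5*, *KLRD1* and *PRF1*, held 45 (12.9%) and 19.4%. The other 42 gated cells were spread over 8 clusters. Clusters 7, 11 and 12, which hold 24.97%, 19.2% and 11.8% of the *GNLY*-negative cells, held 6, 1 and no gated cells.

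**Figure D3:**
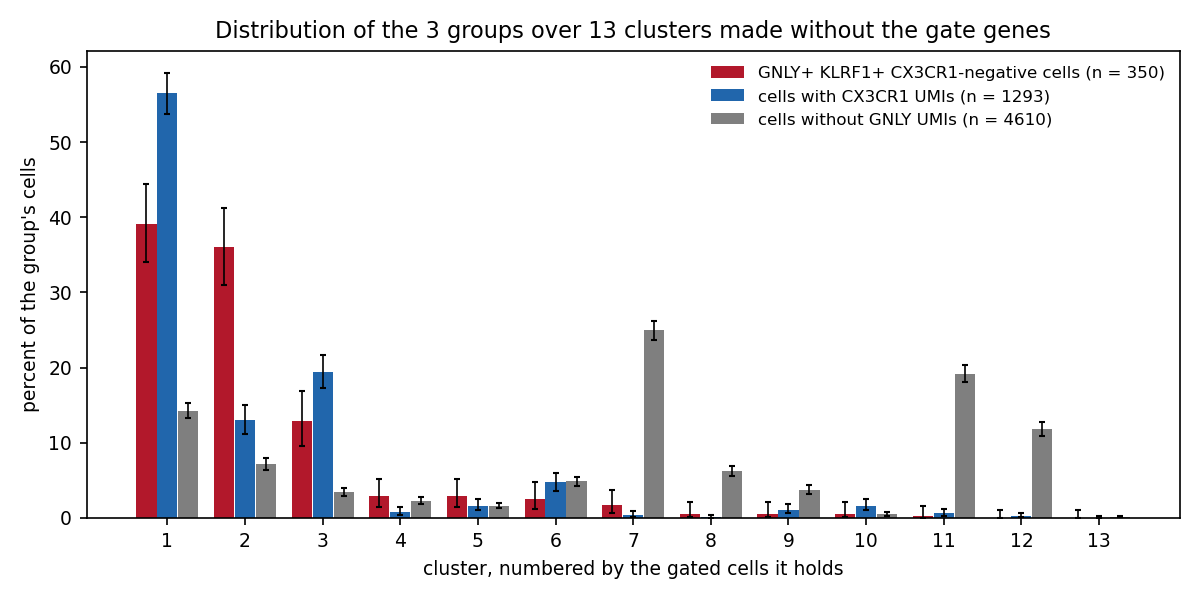
Percent of each group's cells (bars, exact binomial 95% intervals) in 13 clusters made without the genes of the gate. The gated cells (red) are split almost evenly between cluster 1 (39.1%) and cluster 2 (36.0%), while the CX3CR1 cells (blue) are mostly in cluster 1 and the *GNLY*-negative cells (grey) mostly in other clusters.

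Since the clusters were made from these same genes, levels between them and ratios within them are a description. In the gated cells of cluster 2, *GZMB* stood at 974 CPM and in those of cluster 1 at 3691 CPM, a log2 ratio of -1.92 (-2.07 to -1.78). *LTB* went the other way, at 743 against 146 CPM, a log2 ratio of 2.35 (1.97 to 2.74). *CCL5*, *ADGRG1* and *ZEB2* were lower in cluster 2 by -1.53, -1.76 and -1.24, and *GZMK* and *IL7R* higher by 1.10 (0.79 to 1.41) and 0.77 (0.58 to 0.95). *TGFBR3* was at like levels, 292 and 262 CPM, with a log2 ratio of 0.16 (-0.20 to 0.52). At these settings one leading cluster was thus rich in *GZMB* and the other in *LTB*, and *TGFBR3* was found in both. The contrasts in *GZMB* and *GZMK* depend on the settings. With 1000 variable genes the gated cells of the leading and second clusters had *GZMB* at 1721 and 4021 CPM and *GZMK* at 411 and 571 CPM. The cluster richer in *GZMB* was there also the one richer in *GZMK*. With more variable genes the gated cells of the leading and second clusters had *GZMB* at 3733 and 2629 CPM, and with 10 PCs at 1300.2 and 2663 CPM. The share of gated cells in the leading cluster ran from 16.0% to 48.6% over other settings of the clustering, and with receptor segments left out the leading cluster was one with *GZMB* at 698 CPM in its gated cells.

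In single cells the granzymes did not exclude each other. Of the gated cells 120 (34.3%, 29.3 to 39.5) held UMIs of both *GZMB* and *GZMK*, 179 (51.1%) *GZMB* alone, 23 (6.57%) *GZMK* alone and 28 (8.0%) neither. *GZMB* had a median of 7 UMIs per cell and reached 41, and *GZMK* reached 27 in a cell. The 51 cells without *GZMB* had *IL7R* at 1450.2 CPM (1284 to 1632) and *LTB* at 904 CPM (774 to 1049), against 893 and 374 CPM in the cells with it. The log2 ratios of the cells with *GZMB* to those without were -0.70 (-0.89 to -0.50) and -1.27 (-1.53 to -1.01). Of these 51 cells 33 were in cluster 2 and 3 in cluster 1.

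**Figure D4:**
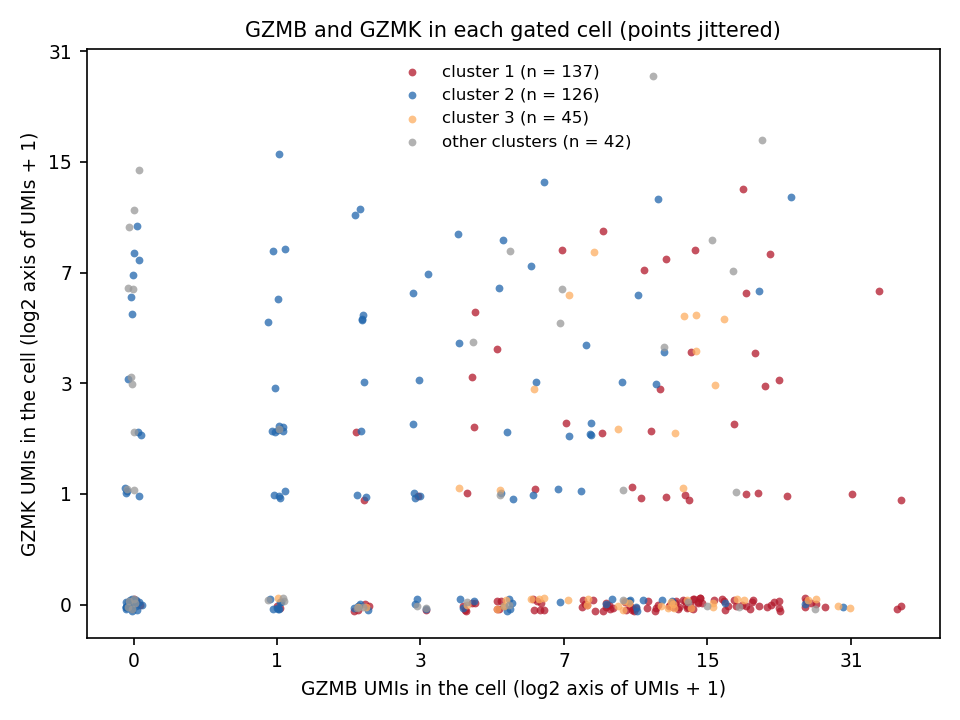
UMIs of *GZMB* (x) and *GZMK* (y) in each of the 350 gated cells on log2 axes of UMIs + 1, jittered and coloured by cluster. Cells of cluster 1 (red) crowd at high *GZMB* with no *GZMK*, cells of cluster 2 (blue) spread over low *GZMB* counts, and 120 cells hold both.

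The gated cells were also set against the CX3CR1 cells of the same cluster. As the clusters were made from these same genes, a difference can be smaller within a cluster by construction. These ratios are thus a description, and an interval that spans 0 here does not show that a difference over all cells is absent. *GZMK* was higher in all 3 large clusters, by log2 ratios of 0.67 (0.38 to 0.96), 1.35 (1.09 to 1.61) and 0.97 (0.45 to 1.46). *GZMB* was lower in all 3, by -0.145 (-0.22 to -0.07), -0.88 (-1.02 to -0.73) and -0.36 (-0.50 to -0.23). *KLRB1* was level in cluster 1 at -0.05 (-0.37 to 0.26), and higher in clusters 2 and 3 by 0.81 (0.51 to 1.11) and 1.14 (0.59 to 1.65). *TYROBP* differed in cluster 2 by 1.15 (0.71 to 1.58), and its intervals span 0 in clusters 1 and 3. *LTB* had intervals that span 0 in all 3 clusters. *TGFBR3* was level in cluster 1 at 0.00 (-0.29 to 0.28) and higher in cluster 2 by 0.53 (0.21 to 0.85). In cluster 3 it was 0.47 (0.0031 to 0.92). In this clustering *GZMB* was thus lower and *GZMK* higher in each large cluster, with the *GZMB* difference in cluster 1 (-0.145) much smaller than over all cells (-0.59). Other clusterings were not compared in this way.

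**Figure D5:**
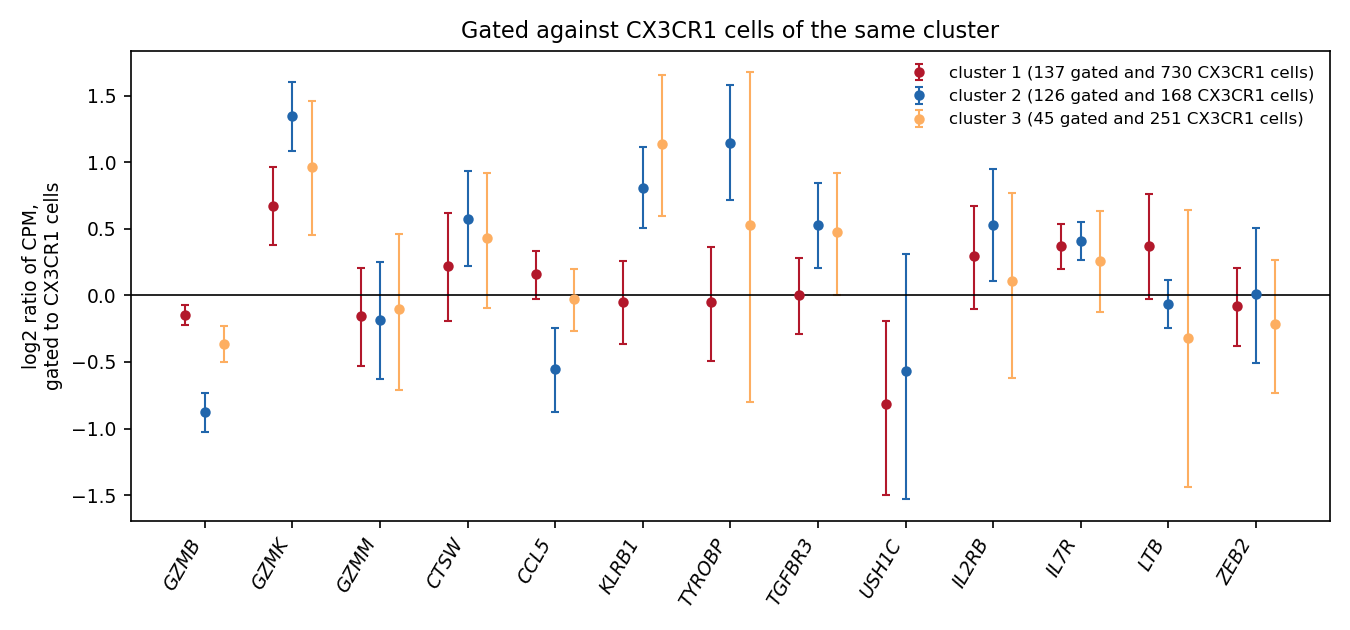
Log2 ratio of CPM of the gated cells to the CX3CR1 cells within clusters 1, 2 and 3, for 13 genes with exact 95% intervals (*USH1C* had no UMI in the gated cells of cluster 3 and has no point there). *GZMK* lies above 0 and *GZMB* below 0 in all 3 clusters, whereas *LTB* and *ZEB2* span 0 in each.

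The 192 cells that passed every step but *CX3CR1* are the closest counterpart. Against them *GZMK* was higher by a log2 ratio of 1.33 (1.07 to 1.60) and *GZMB* lower by -0.58 (-0.66 to -0.51). *IL7R* and *LTB* were higher by 0.62 (0.47 to 0.77) and 0.74 (0.52 to 0.98), *KLRB1* by 0.61 (0.34 to 0.89) and *TGFBR3* by 0.36 (0.10 to 0.62). Taken by the number of *CX3CR1* UMIs, *GZMK* stood at 219 CPM (181 to 263) in the 127 cells with 1 UMI and 131 CPM (91.4 to 181) in the 65 with more. *GZMB* stood at 3240 CPM (3086 to 3399) and 3669 CPM (3446 to 3902) in the same cells.

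T cell receptor segments were varied among the gated cells. The selection itself took out 4 segments, which by construction raises the share of the others. A named alpha segment was seen in 159 gated cells and a named beta segment in 133. *TRAV12-3* was the most frequent alpha segment, in 46 cells (13.1%), against 12.8% of CX3CR1 cells. *TRAV5* had 94 UMIs in 23 gated cells (6.57%, 4.21 to 9.70), against 1.55% of CX3CR1 cells and 2.34% of *GNLY*-negative cells. In the 192 counterpart cells, from which the same 4 segments were removed, the share was 3.65% (1.48 to 7.37), and the intervals overlap. Of those 23 cells 17 were in cluster 2, and *GZMB* was lower in them than in the other gated cells by a log2 ratio of -0.58 (-0.84 to -0.34). Among beta segments *TRBV23-1* was in 24 cells, *TRBV11-1* in 21 and *TRBV28* in 20. *TRBV27*, in 19 cells, had the most UMIs, 235, with up to 35 in a cell.

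Segments of the gamma and delta chains were seen in 38 gated cells (10.9%, 7.80 to 14.6), against 13.9% (12.1 to 15.9) of CX3CR1 cells and 6.07% of *GNLY*-negative cells. Most of these cells held *TRGV1* (29 cells), whose rearranged gamma RNA can also be made by alpha-beta T cells, and 8 held *TRGV9*. Summed as a group, the 38 cells had more *GZMK*, *CTSW* and *KLRB1* than the other gated cells, by log2 ratios of 1.06 (0.78 to 1.34), 1.19 (0.79 to 1.57) and 1.05 (0.69 to 1.40), and *GZMB* at a like level, 0.05 (-0.11 to 0.20). Of the 38 cells, 11 were outside clusters 1 to 3. The 10 gated cells of cluster 5 had these 3 genes at 1270, 1172 and 1335 CPM, and their part in the ratios was not tested. *ZBTB16*, the factor of innate-like T cells, had only 5 UMIs in all gated cells, 4 of them in the 10 cells of cluster 5.

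For the surface tags, 159 gated cells (45.4%, 40.1 to 50.8) were above the 90th percentile of B-gene cells in both CD4 FB and CD8 FB, against 49.0% of CX3CR1 cells. The CD4 FB median was 355 UMIs (339 to 373) in the gated cells, 313 (302 to 322) in the CX3CR1 cells, 389 (384 to 394) in the *GNLY*-negative cells and 90 (84 to 109) in the B-gene cells. The CD8 FB median was 344 (312 to 381), 345 (326 to 362), 325.5 (314 to 337) and 139.5 (118 to 162). Taken singly, 89.4% of gated cells were above that level for CD4 FB and 51.7% (46.3 to 57.1) for CD8 FB, against 92.4% and 52.1% of CX3CR1 cells. In cluster 2 the gated cells had a higher median CD4 FB and a lower CD8 FB (407.5 and 280) than in cluster 1 (321 and 338). The 10 gated cells of cluster 5 had a CD4 FB median of 70.5, no *CD4* UMI and a CD8 FB median of 448, and their CD4 FB median lay below that of the B-gene cells.

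Over all cells, *CD4* and *CD8A* RNA stood at like levels in the gated cells and the CX3CR1 cells. *CD4* stood at 188 CPM (165 to 213) and *CD8A* at 186 CPM (163 to 211) in the gated cells, against 208 and 209.5 CPM in the CX3CR1 cells. *CD8B*, the beta chain of CD8, stood at 29.0 CPM against 10.4 CPM, but its 38 UMIs were in only 12 gated cells (3.43%), a share whose interval (1.78 to 5.91) includes that of the CX3CR1 cells (2.09%). Within cluster 2, *CD8A* was lower in the gated cells, at 141 against 211 CPM, a log2 ratio of -0.58 (-0.99 to -0.18). In clusters 1 and 3 the *CD8A* intervals span 0.

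A few other genes were named by the size of their ratio to the CX3CR1 cells. *SORT1*, which encodes the sorting receptor sortilin, stood at 30.6 CPM in 35 gated cells, against 13.5 CPM in the CX3CR1 cells and 6.8 CPM in the *GNLY*-negative cells. *PDZRN3* stood at 32.1 against 13.9 CPM, and at 40.6 CPM in the *GNLY*-negative cells. On the lower side, *SACM1L*, a phosphoinositide phosphatase, stood at 15.3 against 50.6 CPM, *GDE1* at 59.6 against 121 CPM and *AFAP1L2* at 5.35 against 20.5 CPM. *HBA* stood at 47.4 CPM (36.3 to 60.7) against 124 CPM (115 to 134), and at 204 CPM in the *GNLY*-negative cells. It had a UMI in 15.4% of gated cells, 30.5% of CX3CR1 cells, 8.59% of *GNLY*-negative cells and 13.95% of B-gene cells. After thinning the shares were 8.93% (6.11 to 12.5) of gated cells, 21.1% of CX3CR1 cells and 5.06% (1.40 to 12.5) of B-gene cells.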

How the data were processed

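One sample with 2 libraries (RNA, CD4 and CD8 FB) of the same cells was used. Per the labels, the authors' processing used Cell Ranger 3.1.0, STAR 2.5.1b and Seurat 3.1.3, with Mmul_10 as the genome. They deposited whole-number UMI counts for each gene and tag in each barcode, without normalization. No annotation release is stated.

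Of 7923 barcodes, those kept had 200 to 4000 genes and no more than 20% of UMIs in mitochondrial features (13 named genes and 2 features without a symbol). *GNLY* has no symbol in the deposited list and was named through a table of gene IDs. Symbols for 272 of 299 listed genes were found. Members, lists and tests were chosen with earlier results of these data known, and the counterpart cells after these values were seen.

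Groups were compared by summed counts, with exact Poisson, binomial (Clopper-Pearson) or binomial-split intervals at 95%, tested on simulated data. A median FB interval is from order statistics. Fold calls used a pseudocount of 10 CPM and a minimum mean of 10 CPM. Named genes are the gate genes, label genes, listed genes and, per comparison and direction, the 10 largest ratios among genes with a symbol. These ratios had to be backed by 20 or more UMIs on the higher side. One gene that this rule names is not reported here. Clusters used scanpy 1.11.5 (2000 variable genes, 15 PCs, 20 neighbours, resolution 1). Doublets were kept: Scrublet's own threshold called 0 cells, which does not show that doublets were absent. Its 5% highest scores were left out as an alternative. Other alternatives changed the filter, gate, groups, pseudocount and clustering. Python 3.11.15, numpy 2.4.6 and scipy 1.17.1 were used.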

Additional observations from a re-analysis of the deposited data

Results flagged for a closer look

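Of 322 barcodes outside the cell filter, 6 met the gate on UMIs, above the floor of 3 counts, and were flagged as signal in data that the comparisons do not use. All 6 were over the mitochondrial limit of 20%.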

How the results depend on the processing

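The alternatives changed the gate, the groups, the cell filter, the pseudocount or the clustering, and those with CX3CR1 cells that differ by *CX3CR1* alone and with receptor segments left out of the clustering were chosen after seeing the data. Of 114 main values under an alternative, 86 moved by less than the counting interval (for counts, by less than 1.5 times), 28 moved further and none of those past their interval changed sign. The log2 ratio of CD8 FB medians to the CX3CR1 cells, -0.0042 with an interval that spans 0, changed sign within it, to 0.0909 against cells that differ by *CX3CR1* alone, 0.0450 at the 10% mitochondrial limit, 0.0176 without the highest doublet scores and 0.0126 with named mitochondrial genes only. Of 134 values of single genes, 1 changed sign, *LTB* to the CX3CR1 cells, at -0.0038 with at least 2 *KLRF1* UMIs. The share of cells in the gate was 3.08% with at least 2 *GNLY* UMIs, 1.33% with at least 2 *KLRF1* UMIs, 4.01% with *ADGRG1* also barred and 3.39% after thinning to 2000 UMIs. With at least 2 *KLRF1* UMIs, the *TGFBR3* log2 ratio was 0.49 to the CX3CR1 cells (0.17 after thinning, with an interval that spans 0) and 2.09 to the *GNLY*-negative cells, the latter being 1.47 after thinning and 1.43 as a mean over cells. The *GZMB* ratio to the CX3CR1 cells was -0.82, -0.32 and -0.70 with at least 2 *GNLY* UMIs, at least 2 *KLRF1* UMIs and *ADGRG1* barred. That of *TYROBP* was 0.34 with at least 2 *KLRF1* UMIs and 0.33 after thinning, both with intervals that span 0, but 0.95 to CX3CR1 cells with *GNLY*, *KLRF1* and CD3 UMIs and 1.10 to those that differ by *CX3CR1* alone. Genes past the fold against the CX3CR1 cells (24) were 40 with at least 2 *GNLY* UMIs, 64 with at least 2 *KLRF1* UMIs, 74 after thinning, 68 and 7 with a pseudocount of 1 and 50 CPM, and 10 with a minimum of 50 CPM. Against the *GNLY*-negative cells (166) they were 274 with at least 2 *KLRF1* UMIs, 308 and 39 with a pseudocount of 1 and 50 CPM, and 65 with a minimum of 50 CPM. The share of gated cells in the leading cluster (39.1%) was 48.6% at resolution 0.5, 16.0% at resolution 2, 24.6% with 10 PCs, 31.1% with more variable genes and 30.6% without receptor segments. Higher genes against the *GNLY*-negative cells were 76 of 166 called, and 47 of 65 with a minimum of 50 CPM. The cause of these moves was not tested. No paired analysis was possible because the cells come from 1 sample. With about 3332 UMIs per cell, a single missing UMI cannot show that a cell lacks a gene.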
